A study of Mus musculus with 6 samples.

Results

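Linker histone H1 genes were examined in N2A cells, which derive from a mouse neuroblastoma, profiled on Affymetrix Mouse Gene 1.0 ST arrays. The study asked how the transcriptome responds when Pbcas4, a mouse pseudogene transcript descended from a protein-coding gene, is reduced. An shRNA against Pbcas4 (Pbcas4 shRNA) had been transfected in the cells of 3 arrays, and a control hairpin of scrambled sequence (scramble) in those of the other 3. Both hairpins were expressed transiently from a U6 promoter vector, and RNA was taken 72 h after transfection, so every culture had received a hairpin construct and the same transfection reagent, and no untransfected array is included. No probe was named Pbcas4 in the annotation used, so the reduction of Pbcas4 itself was not checked here. The study assayed it by quantitative PCR and reported a reproducible but partial decrease. The family members looked for were H1f0, H1f1, H1f2, H1f3, H1f4, H1f5, H1f7 and H1f10, each counted where a probe carried that gene symbol and no other. They were chosen by symbol, and for a gene with several such probes the one with the highest mean level over the 6 arrays was to be taken. Each measured H1 gene had 1 probe, so no level and no difference decided which probe was read. This gave 6 of the 8 genes, out of 19938 genes that had such a probe: H1f1, H1f2, H1f3, H1f5, H1f7 and H1f10. H1f4 shared its probe with the core histone gene H2bc6, and H1f0 was not named by any probe in the annotation used, so H1f0 was not analysed here.

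Linker histones bind where DNA enters and leaves the nucleosome core and help fold nucleosome arrays into more compact chromatin. H1f1 to H1f5 are somatic variants whose genes lie in the large histone gene cluster. Their transcription is tied to DNA replication, and their usual mRNAs end in a stem-loop and lack a poly(A) tail. H1f2 and H1f4 (H1c and H1e in older names) make up much of the linker histone of cells that have stopped dividing, whereas H1f1 and H1f5 (H1a and H1b) are more typical of dividing cells. H1f0 and H1f10 lie outside the cluster and are expressed independently of replication, and H1f7 is a variant of spermatids. The probes' gene identifiers placed H1f1, H1f2, H1f3 and H1f5 on chromosome 13, H1f7 on chromosome 15 and H1f10 on chromosome 6.

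The clustered genes shared promoter motifs, which were searched in the 300 bases from 250 before to 50 after each RefSeq start site (build GRCm38.p6). The H1 box, AAACACA, is an element known from linker histone promoters, and CCAATCA holds the CCAAT element bound by NF-Y. The following stretches, each of 30 bases on the strand of the gene, carry the H1 box in capitals and are shown because they set H1f2 beside the clustered H1 genes that share this element.
H1f2 (chr13:23738684-23738713, + strand): tgaagtgtaacAAACACAagttgggcgcag
H1f3 (chr13:23554899-23554928, + strand): tgaggggcaacAAACACAgccacaaggcaa
H1f4 (chr13:23622655-23622684, - strand): tgaggtgtaacAAACACAactccgcatctg
H1f5 (chr13:21780724-21780753, - strand): tggggactaacAAACACAatttgggattgt
The H1 box began between 112 and 122 bases upstream of the start site in these 4 genes. H1f1 held no match in its window, and neither did H1f0, H1f7 or H1f10. On the sense strand, 3.57% of 32851 promoters of the same length held AAACACA, and on either strand 7.18% did.

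The CCAAT element is shown in capitals for H1f1, H1f2 and H1f5, the clustered genes with the widest differences between the constructs.
H1f1 (chr13:23763601-23763630, + strand): gttagcattcaCCAATCAcagcacagcact
H1f2 (chr13:23738742-23738771, + strand): ccgctggagcaCCAATCAgcgcgcgcctgc
H1f5 (chr13:21780660-21780689, - strand): tggccgctccaCCAATCAcagcccagcacc
CCAATCA began 51 to 56 bases upstream in all 5 clustered members, H1f3 and H1f4 included. TATANA, a form of the TATA motif, began 26 to 33 bases upstream in the same genes. The sense strand of all promoters held these motifs in 4.08% and 18.0% of cases, and either strand in 7.82% and 24.7%. Neither motif was found on either strand of H1f0, H1f7 or H1f10. H1f2, H1f3, H1f4 and H1f5 thus held all 3 motifs, and so did the testis variant H1f6, with the H1 box 114 bases upstream. CCAATCA and AAACACA did not overlap each other or TATANA in these windows. These are matches of letters, and no binding was measured.

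**Figure D1:**
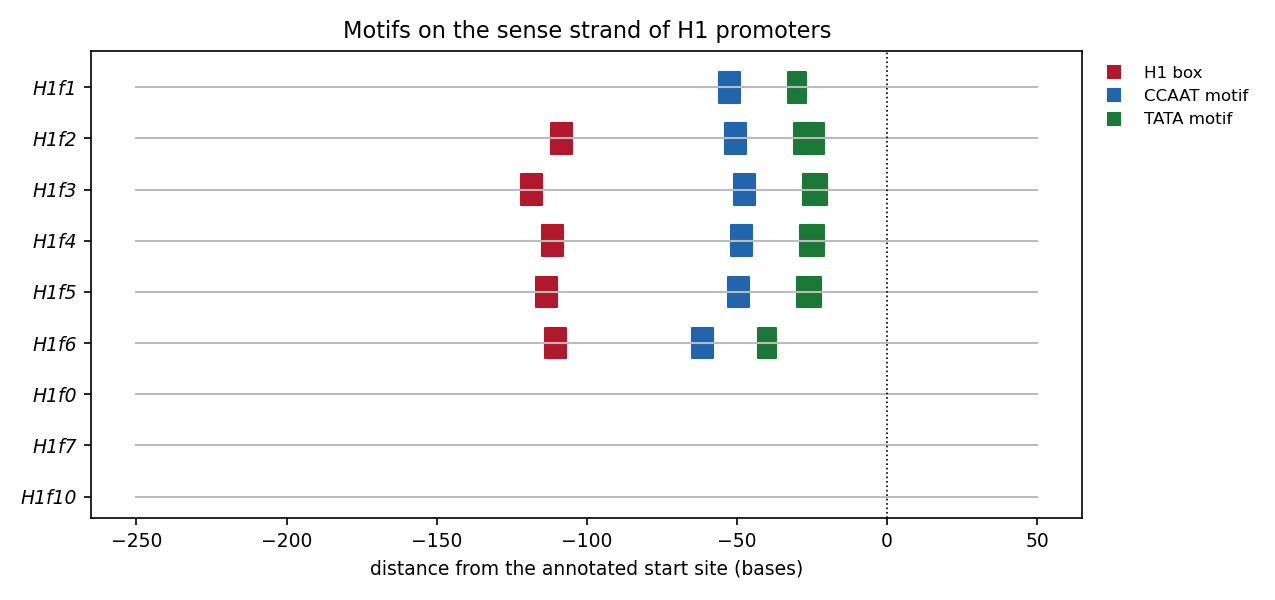
Positions of the H1 box (AAACACA), the CCAAT motif (CCAATCA) and the TATA motif (TATANA) on the sense strand of 9 H1 promoters, in bases from the annotated start site (dotted line); each grey line is the 300 bases searched. H1f2, H1f3, H1f4 and H1f5 show the same order of motifs, H1f1 lacks the H1 box, and H1f0, H1f7 and H1f10 show none of the motifs.

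All values below are normalized log2 expression as deposited, and a difference is the shRNA mean minus the scramble mean on that scale. A level is comparable between arrays for 1 probe but not between probes. Array medians were 7.75 to 7.86, and the median over all probe means was 7.83. Of the markers for a sympathoadrenal neuroblastoma, 11 of 12 were measured and all 11 were above that median, whereas 1 of 6 macrophage, 1 of 5 epithelial, 1 of 5 glial and 4 of 6 fibroblast markers were. All 6 measured H1 genes had means above the median of all probes, with H1f3 close to it. The spermatid variant H1f7 was at the 57.27th percentile of probe means and the fibroblast marker Col1a1 at the 58.85th. A mean above the median does not by itself show that a gene was expressed. The RNA came from whole cultures, so a smaller share of cells expressing a gene and less RNA per cell cannot be told apart. The threshold for a call was an adjusted p below 0.05 together with a difference above 0.5 in size, and limma called 0 of the 6 H1 genes and 0 of 19938 genes (0%). The lowest adjusted p of any probe was 0.297. Taking the unadjusted p below 0.05 instead, 1 of the 6 H1 genes (H1f2, lower) met both criteria, against 3.71% of all genes, 1.93% lower and 1.79% higher with the shRNA. The mean was lower with the shRNA for 1 of the 6, against 49.0% of all genes. The groups did not overlap for 2 of the 6, 1 lower and 1 higher, against 16.8% of all genes, 7.63% lower and 9.13% higher.

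H1f2 was the one measured H1 gene with a lower mean under the Pbcas4 shRNA. It was at 10.46, 10.66 and 10.71 with the Pbcas4 shRNA and at 11.32, 11.33 and 11.30 with scramble, by replicate number from 1 to 3, an order kept below. The highest shRNA array lay 0.59 below the lowest scramble array, and the scramble arrays were nearly alike. The means were 10.61 ± 0.13 and 11.31 ± 0.02 (SD, n = 3 each). The difference was -0.70 (standard error 0.09, 95% interval -0.93 to -0.48), or 0.614 times the scramble level on the linear scale. Its adjusted p from limma was 0.337 (unadjusted p = 0.000186). An exact permutation test, two-sided and without pairing, had p = 0.1, the smallest that 3 unpaired arrays against 3 allow. Of all genes, 0.993% had a lower difference than H1f2. Arrays with the same replicate number differed by -0.85, -0.67 and -0.59. Scramble replicate 1, which lay beside the shRNA arrays for genes of the cell cycle, lay with the other scramble arrays for H1f2. The shRNA mean of H1f2 minus that array was -0.71. Over all probes, scramble replicate 1 had a Pearson r of 0.992, 0.990 and 0.993 with the shRNA arrays. Its r was 0.988 and 0.987 with scramble replicates 2 and 3, which had an r of 0.994 with each other. The likeness of this array to the shRNA arrays was thus not confined to genes of the cell cycle.

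H1f1 and H1f5 had higher means with the Pbcas4 shRNA, but their scramble arrays were spread over more than 1 log2 unit and overlapped the shRNA arrays. H1f5 was at 12.80, 12.68 and 12.74 with the Pbcas4 shRNA and at 12.71, 12.16 and 11.56 with scramble. H1f1 was at 11.71, 11.61 and 11.77 with the Pbcas4 shRNA and at 11.75, 11.06 and 10.60 with scramble. In both genes scramble replicate 1 lay within the range of the shRNA arrays, scramble replicate 2 was lower and scramble replicate 3 lowest. The difference of H1f5 was 0.59 (standard error 0.27, 95% interval -0.05 to 1.24, adjusted p = 0.529 from limma, exact permutation p = 0.2). That of H1f1 was 0.56 (standard error 0.27, 95% interval -0.10 to 1.21, adjusted p = 0.560 from limma, exact permutation p = 0.3). Against scramble replicate 1 alone the shRNA mean was 0.02 higher for H1f5 and -0.06 for H1f1, and against the other two it was 0.88 and 0.86 higher. Without scramble replicate 3 the differences of H1f5 and H1f1 were 0.30 and 0.29.

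**Figure D2:**
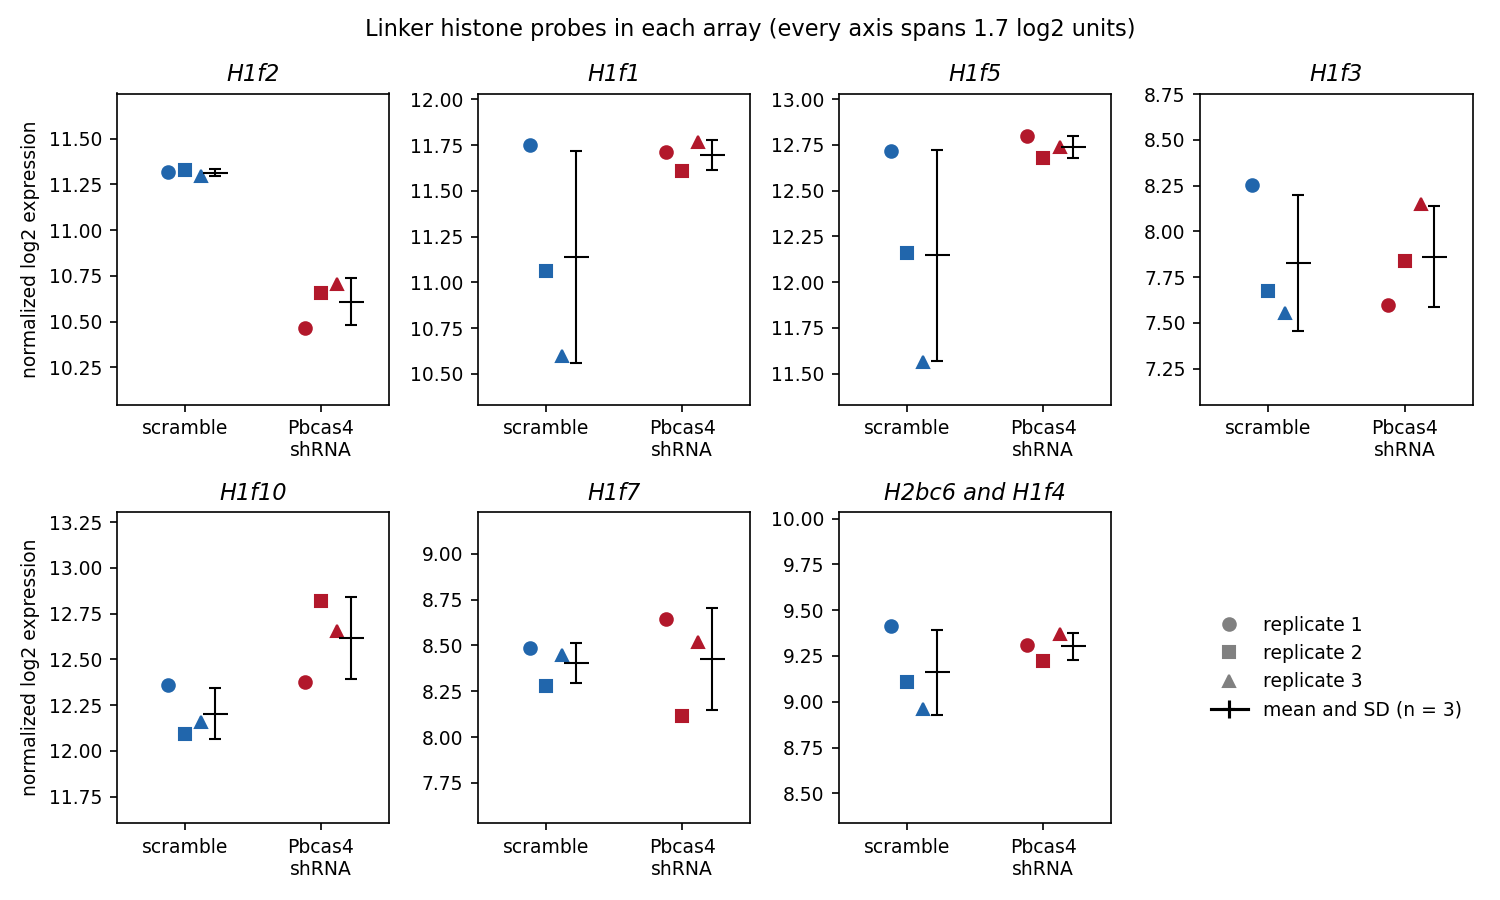
Normalized log2 expression of the 6 measured H1 genes and of the probe shared by H2bc6 and H1f4 in each array (symbols, by replicate number), with each group's mean and SD over 3 arrays (bars); every vertical axis spans 1.7 log2 units. H1f2 lies at 11.30 to 11.33 with scramble and at 10.46 to 10.71 with the Pbcas4 shRNA, whereas for H1f1 and H1f5 scramble replicate 1 lies beside the shRNA arrays.

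H1f1 and H1f5 followed each other across the 6 arrays. Their Pearson r was 0.991, a description over arrays that share their normalization and their cultures. Within an array, the log2 ratio of H1f1 to H1f5 differed between the groups by -0.03 (SD 0.06 with the Pbcas4 shRNA and 0.08 with scramble, n = 3 each). H1f2 did not follow them. The log2 ratio of H1f2 to H1f5 within an array differed by -1.30 between the groups (SD 0.18 and 0.56), and that of H1f2 to H1f1 by -1.26 (SD 0.15 and 0.57). For both ratios each shRNA array lay below each scramble array. These ratios show unequal change between the probes and were chosen after the values were seen, so no test was run on them.

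H1f10, expressed independently of replication, had a higher mean with the Pbcas4 shRNA. It was at 12.37, 12.82 and 12.65 with the Pbcas4 shRNA and at 12.36, 12.09 and 12.16 with scramble. The groups did not overlap, but shRNA replicate 1 lay 0.01 above scramble replicate 1, and the other arrays were separated by more. The means were 12.62 ± 0.22 (SD, n = 3) and 12.20 ± 0.14 (SD, n = 3), a difference of 0.41 (standard error 0.14, 95% interval 0.08 to 0.75, adjusted p = 0.431 from limma, exact permutation p = 0.1). Arrays with the same replicate number differed by 0.01, 0.72 and 0.49. The log2 ratio of H1f2 to H1f10 within an array differed between the groups by -1.12 (SD 0.13 and 0.14, n = 3 each).

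For H1f3 and H1f7 the group means were nearly the same and the arrays overlapped. H1f3 was at 7.59, 7.84 and 8.15 with the Pbcas4 shRNA and at 8.25, 7.68 and 7.56 with scramble. Its difference was 0.03 with a 95% interval from -0.49 to 0.56, so a higher level by as much as the estimate for H1f1 was within reach of these arrays. The probe of H1f3 was at the 50.25th percentile of all probe means. H1f7, the spermatid variant, was at 8.65, 8.11 and 8.52 with the Pbcas4 shRNA and at 8.49, 8.28 and 8.45 with scramble, a difference of 0.02 (95% interval -0.35 to 0.39). Their adjusted p from limma were 0.988 and 0.990.

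The probe shared by H2bc6 and H1f4 could not be assigned to either gene. It was at 9.31, 9.22 and 9.37 with the Pbcas4 shRNA and at 9.42, 9.11 and 8.96 with scramble, a difference of 0.14 (95% interval -0.17 to 0.46). Scramble replicate 1 was again the highest scramble array, as for H1f1 and H1f5. Germ-cell H1 genes outside the members were also measured. H1f6, the testis variant, differed by 0.05 (95% interval -0.19 to 0.30), H1f8, the oocyte variant, by 0.03 (-0.19 to 0.25) and Hils1, a spermatid linker histone, by -0.12 (-0.45 to 0.21), with overlapping arrays in each case.

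**Figure D3:**
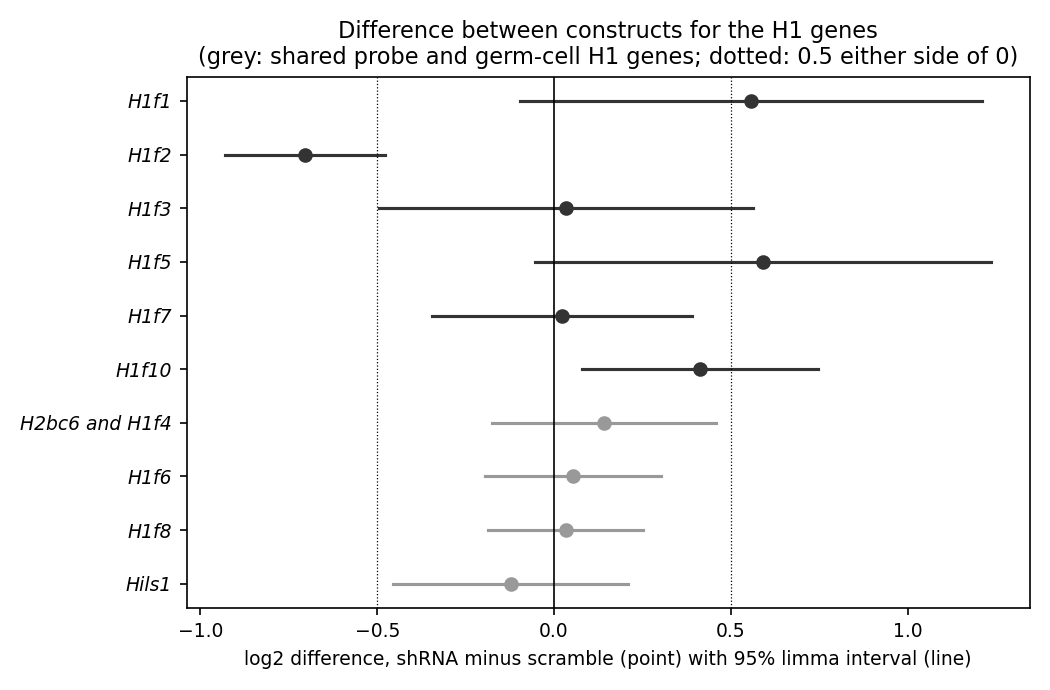
Log2 difference, shRNA minus scramble, with its 95% limma interval for the 6 measured H1 genes (dark), the probe shared by H2bc6 and H1f4, and 3 germ-cell H1 genes (grey). The interval of H1f2 runs from -0.93 to -0.48 and that of H1f10 from 0.08 to 0.75, and the intervals of the other genes include 0.

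Core histone genes, whose products form the nucleosome core, were mostly on the side of H1f1 and H1f5. Many of the replication-dependent copies lie in the cluster with H1f1 to H1f5, and others, such as H4c14, lie outside it. Of 22 measured core histone genes listed as replication-dependent, 20 had a higher mean with the Pbcas4 shRNA than with scramble and 2 a lower one. Replication dependence was not checked gene by gene, and the list includes H2ac1, H2bc1 and H2bc21. Their median difference was 0.26, the lowest was -0.08 and the highest 0.57, against a median of 0.0031 over all genes. None was called. The groups did not overlap for 2 of the 22, both higher (H4c8 and H2bc22), against 16.8% of all genes, 9.13% higher. This count is thus no more than the share over all genes. The examples given are the 3 whose probes had the highest means, a choice that does not rank the transcripts: H4c4 (difference 0.26, standard error 0.12), H2ac15 (0.18, standard error 0.11) and H4c14 (0.16, standard error 0.12). H1f2 thus lay outside the range of these genes, at -0.70, for the difference from the scramble mean. Against scramble replicate 1 alone it did not, as H3c15 was at -0.98 and H1f2 at -0.71. In gene order on the RefSeq assembly, measured neighbours of H1f2 were H4c3, H2bc3 and H2ac4, with differences of 0.26, 0.50 and 0.57 and overlapping arrays, and the testis variant H1f6 (0.05). Hfe, a regulator of iron uptake and the nearest measured neighbour on one side, differed by -0.13. These neighbours were looked up after the values were seen.

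Most genes lay on the same side in other lists of histone biology, and limma called 0 genes in each. Of 8 core histone variants listed as replication-independent, H2ax included, 8 had a higher mean (median difference 0.22). Among them was H2az1, which encodes H2A.Z (0.20, standard error 0.12). Of 16 genes of histone mRNA expression and processing, 12 had a higher mean and 4 a lower one (median 0.14). Slbp, which binds the stem-loop of histone mRNAs, was at 11.19 ± 0.14 with the Pbcas4 shRNA and 10.66 ± 0.46 with scramble (SD, n = 3 each; difference 0.53, adjusted p = 0.506 from limma). Npat, the coactivator of histone gene transcription, differed by 0.38 (standard error 0.16). Of 13 chaperones of H1 and proteins that compete for its binding site, 12 had a higher mean (median 0.16). Nasp, a histone chaperone that binds H1, differed by 0.51 (standard error 0.28) and Set, a chaperone of the nucleosome assembly family, by 0.19 (standard error 0.28). Of 9 core histone chaperones, 7 had a higher mean and 2 a lower one (median 0.29). These medians also depended on the scramble array. Against scramble replicate 1 alone those of the variants, the mRNA processing genes, the H1 chaperones and competitors and the core histone chaperones were -0.015, 0.0046, -0.027 and -0.019, and against scramble replicates 2 and 3 they were 0.35, 0.24, 0.32 and 0.41.

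**Figure D4:**
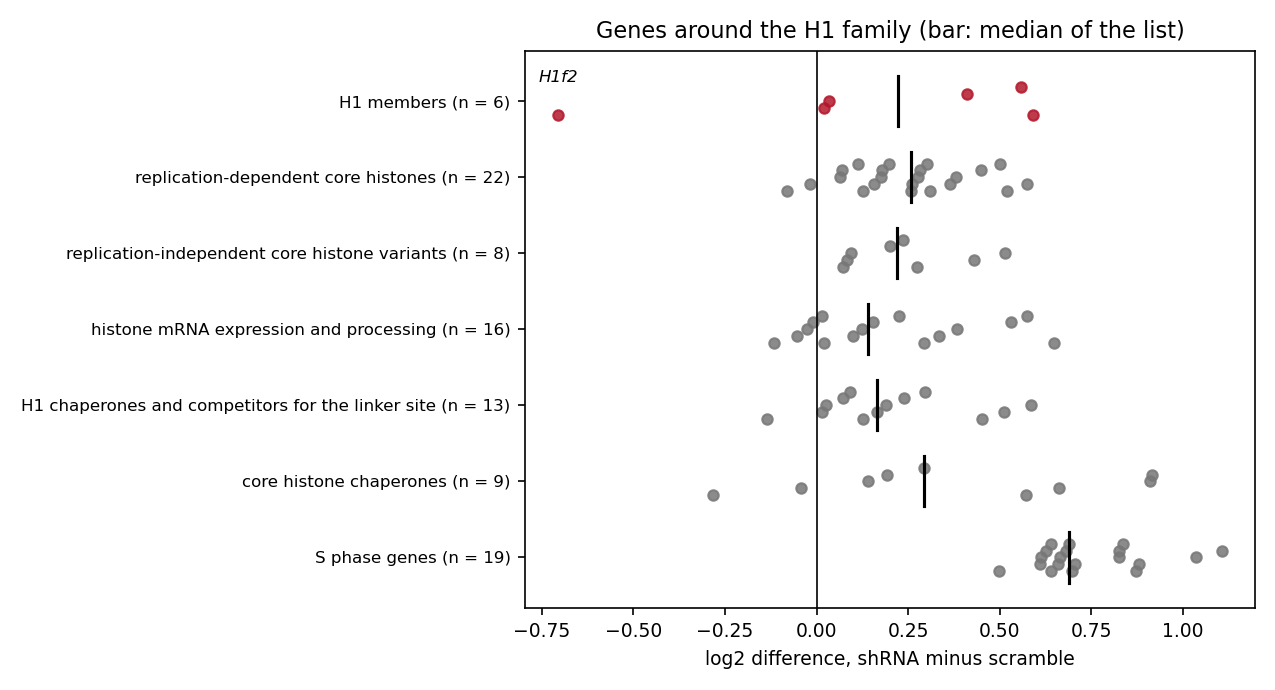
Log2 difference, shRNA minus scramble, of each measured gene in the H1 family (red) and in 6 lists of histone and S phase genes (grey), with the list median as a bar; the vertical scatter within a list has no meaning. H1f2, at -0.70, lies to the left of every gene of these 6 lists.

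Genes of S phase varied with H1f1 and H1f5 across the arrays. The mean of 19 S phase genes was 11.87, 11.60 and 11.64 with the Pbcas4 shRNA and 11.74, 10.83 and 10.31 with scramble. Scramble replicate 1 again lay among the shRNA arrays, and scramble replicate 3 was lowest. Pcna, the sliding clamp of DNA polymerases, differed by 0.50 (standard error 0.24) and Mcm7, a subunit of the replicative helicase, by 0.83 (standard error 0.29). Against scramble replicate 1 alone the S phase genes had a median difference of -0.02, as did the core histones, and against scramble replicates 2 and 3 the medians were 1.06 and 0.38. The part of this list in the differences of H1f1 and H1f5 was not tested. H1f2 was as far below scramble replicate 1 (-0.71) as below scramble replicates 2 and 3 (-0.70).

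Markers of the neuronal and sympathoadrenal state lay in the direction of H1f2. All 11 measured markers had a lower mean with the Pbcas4 shRNA (median difference -0.50), and limma called 0 of them. Their mean level was 11.46 to 11.63 with the Pbcas4 shRNA and 12.04 to 12.29 with scramble, with no overlap. Taken singly, 5 of the 11 markers had no overlap, all lower, against 7.63% of all genes lower. Chgb, a granin of secretory granules, was at 12.65 ± 0.11 and 13.66 ± 0.15 (SD, n = 3 each). Its adjusted p from limma, 0.297, equalled the lowest of any probe. These markers had been seen to be lower in earlier results of these data, and their part in the difference of H1f2 was not tested. The fibroblast marker means were at 7.63 to 7.73 and 7.32 to 7.64. They overlapped between the groups, as did the macrophage, epithelial and glial marker means. Of these markers taken singly, the fibroblast marker Pdgfra (difference 0.55) and the glial marker Mog (-0.20) had no overlap. No macrophage or epithelial marker was without overlap, and all 6 fibroblast markers had a higher mean. Over all genes, 9.13% were higher without overlap and 7.63% lower.

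**Figure D5:**
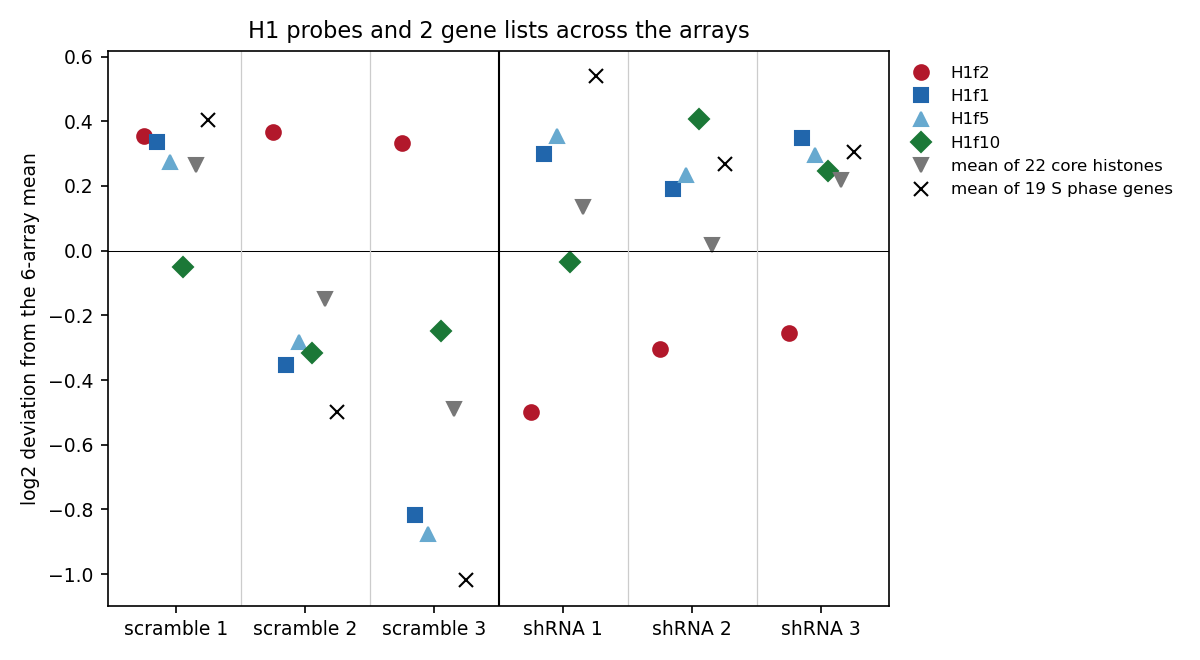
Deviation of each array from the mean of the 6 arrays, in log2 units, for 4 H1 genes, the mean of 22 replication-dependent core histones and the mean of 19 S phase genes; replicate numbers carry no order. H1f1, H1f5 and both lists are high in scramble replicate 1 and low in scramble replicate 3, whereas H1f2 is alike in the 3 scramble arrays and lower in the 3 shRNA arrays.

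H1f5 and H1f1 had the largest SDs over the 6 arrays among the measured H1 genes, 0.49 and 0.48, against a median of 0.15 over all genes. The 5 genes whose profile was most like that of H1f5, by Pearson r over the 6 arrays, were Cks2 (0.999), Lsm5 (0.998), Mtrf1l (0.998), Cenpi (0.998) and Pcna (0.997). Cks2 is a small subunit of cyclin-dependent kinases, Lsm5 belongs to the ring of Sm-like proteins on RNA ends, and Cenpi is a centromere protein. For H1f1 they were Palb2 (0.999), Xrcc1 (0.999), Ccnf (0.999), Creld2 (0.998) and Mrpl40 (0.997). Palb2 is the partner of BRCA2 in recombination, Xrcc1 a scaffold of strand break repair and Ccnf a cyclin. With 6 arrays a close likeness is common, as 1122 genes (5.63%) had an r over 0.9 with H1f5 and 1194 (5.99%) with H1f1. For H1f2, looked at in addition to those 2 genes, 302 genes (1.51%) had an r over 0.9. The profile of H1f2 was thus not particular to it.

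When arrays were weighted by how closely they followed the fit (limma's array weights, an estimate that did not converge on these data), H1f1, H1f2, H1f5 and H1f10 were called, 4 of the 6 H1 genes against 6.62% of all genes. The differences were then 0.73, -0.64, 0.67 and 0.51, with adjusted p of 0.0364, 0.0172, 0.0489 and 0.0204 from limma, in a fit that gave shRNA replicate 3 a weight of 5.32 and scramble replicate 2 one of 2.39, against 0.353 to 0.875 for the other arrays. H1 genes resemble one another in coding sequence, and signal that one probe receives from the RNA of another H1 gene was not tested.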

How the data were processed

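RNA of 6 N2A cultures was hybridized to Affymetrix Mouse Gene 1.0 ST arrays. The authors deposited normalized log2 expression values, 1 for each probe and array. How background was corrected, probes summarized and arrays normalized is not given in the sources used here. No further normalization was applied. Probes (35556) were named from the platform annotation, 21789 of them with 1 symbol, and identifiers of all 6 measured H1 genes matched RefSeq (GRCm38.p6), which also supplied promoters. Groups and replicate numbers came from the sample titles.

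Differences were fitted by lmFit and eBayes of limma 3.58.1 under R 4.3.3 (1 term for the construct, two-sided), adjusted by Benjamini-Hochberg over all probes, after the study's use of limma at an adjusted p under 0.05. Its further criterion, a variance between conditions, was read as a log2 difference over 0.5. The study considered only probes that met its criterion and reported differentially expressed genes from these arrays. Here the size criterion was applied after adjustment over all probes, so the absence of calls is not a repeat of the study's procedure. The fit was tested on simulated data. Single genes were also tested by exact permutation of the arrays. Lists are described by counts and medians. The members and lists were chosen with earlier results of these data known, so nothing here is independent support for them. Named were all H1 genes, fixed genes of each list, the 3 core histones of highest level and the genes most like the 2 most variable H1 genes; neighbours, H4c8, H2bc22 and Hfe were chosen after values were seen. H3f3b, also to be named, had no probe of its own symbol alone, and another gene is not reported here.

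Same-numbered arrays are not explained by the labels. After the group means were removed they correlated at 0.291, 0.137 and 0.103 across probes, all over 0.1, so a pairing by number is possible. Other matchings of the arrays were not looked at, so these values do not show that the arrays were paired. The reported fit and the permutation tests took the arrays as unpaired, and the pairing was fitted as a block only as an alternative. Transfections were in triplicate, per the study's methods, in wells of 1 cell line, so p-values measure the spread between these transfections. The number of arrays limits the precision. Alternatives were quantile normalization, median centring, trended and robust variance, array weights, the block, leaving out dim probes, averaging a gene's probes, leaving out arrays and other criteria. Figures were drawn with matplotlib 3.10.9.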

Additional observations from a re-analysis of the deposited data

How the results depend on the processing

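Under 14 alternatives, leaving out single arrays included, H1f2 kept a negative difference (-0.75 to -0.63) and H1f1, H1f5 and H1f10 a positive one, and limma called none of the H1 genes except with array weights (4 H1 genes and 33 genes of the other lists called). At an unadjusted p under 0.05 with a difference over 0.5, 1 H1 gene passed; with no size criterion at an adjusted p, 0 did. The adjusted p of H1f2 ranged from 0.0172 to 0.839. The number of H1 genes with a lower shRNA mean, 1 in the reported fit, was 2 without both arrays numbered 1 and 1 to 3 when single arrays were left out, as H1f3 and H1f7 changed sign. Leaving out single arrays, the difference was -0.11 to 0.25 for H1f3, -0.088 to 0.18 for H1f7, 0.29 to 0.86 for H1f1, 0.30 to 0.88 for H1f5 and 0.31 to 0.53 for H1f10; without both arrays numbered 1, H1f7 was at -0.046. The causes of these shifts were not tested. With the replicate number as a block, 0 H1 genes were called and the adjusted p of H1f2 was 0.254, so the pairing changed no call. Averaging a gene's probes left the H1 values as they were, since each had 1 probe. The standard error limited H1f1 and H1f5 (0.27 each) more than H1f2 (0.09).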

Other observations

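In gene order, H1f10 is flanked by Hmces, which encodes a sensor of abasic sites in single-stranded DNA, and Rab7, a GTPase of late endosomes. Hmces was at 11.29, 11.56 and 11.49 in the shRNA arrays and at 11.08, 11.06 and 11.08 in the scramble arrays, a difference of 0.37 (standard error 0.10, adjusted p = 0.389 from limma), with no overlap. Scramble replicate 1 lay with the other scramble arrays for Hmces. Rab7 differed by -0.18 (standard error 0.11) with overlapping arrays. Both were looked up after the values of H1f10 were seen.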
